A study of Mus musculus with 4 samples.

Results

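The enzymes that build, remodel and break down phospholipids and sphingolipids were followed in the liver of obese mice treated with galanin-like peptide (GALP), a hypothalamic neuropeptide. The set was 40 genes chosen by name, and their probes were found by the gene name on the array, with the brightest unmarked probe standing for each gene. Of the 40 genes, 39 had a probe, with 82 probes in all and 25 genes with several, while Lpcat4 had none of that name. The arrays carried probes for 26414 gene names. The mice were male C57BL/6J mice, 8 weeks old when purchased. They became obese (diet-induced obesity, DIO) on a high-fat diet given for 14 weeks, which continued during treatment, and weighed at least 40 g. Porcine GALP (1 nmol, dissolved in saline with 5% α-cyclodextrin) or saline was given into the nose once a day for 11 days in a volume of 2 µL. Of the GALP-treated mice, the 4 that lost more weight gave the greater weight loss pool of liver RNA and the 4 that lost less gave the less weight loss pool. Each was hybridised with the pooled RNA of 8 saline-treated DIO mice. Each pairing was run as a dye swap, with GALP in Cy5 on 1 array and in Cy3 on the other, and the 4 dual-colour arrays lay on 1 slide. The pooling hides the spread between mice, and the control pool is a single sample whose own spread enters no test.

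Phosphatidylcholine and phosphatidylethanolamine, the main phospholipids of the liver, are made by activating choline or ethanolamine and joining it to diacylglycerol, and the liver also methylates phosphatidylethanolamine to phosphatidylcholine. Phosphatidylserine is made by exchange of the head group, phosphatidylinositol and cardiolipin are made from CDP-diacylglycerol, and acyltransferases then exchange the fatty acids of the finished phospholipids. Sphingolipids start from serine and a fatty acyl-CoA, pass through ceramide, and leave it as sphingomyelin, glucosylceramide or sphingosine 1-phosphate. Ceramide in the liver is known for its ties to obesity and to insulin action.

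No member passed the rule of the methods, and most lay close to the control level by the mean of both pools. That rule was read as a GALP over control fold in each pool over 1.5 (or, for a lower gene, under 0.75), together with 1 direction and a p-value of the scanner software under 0.01 on all 4 arrays. Of the 35 members with signal on every array (meaning a signal clear of background in 1 or both channels of each), 0 were called higher and 0 lower, and 0 of all 82 probes were called. Over the whole array the rule called 24 probes higher (0.0585%) and 54 lower (0.132%), 78 of 41037 in all (0.19%), and 58 of the 11318 genes with signal on every array (0.512%, with 0.168% higher and 0.345% lower). The mean log2 ratio of GALP over control lay between -0.15 and 0.15 in 25 members (71.4%). That share was not counted over all genes, so it does not set the members apart from them. The SD of the mean ratios was 0.21 over the members and 0.25 over all genes with signal. The mean ratio was above 0 in 14 members and below 0 in 21, beside 5171 and 6147 of the 11318 genes with signal. The median over the 35 members was -0.04 ± 0.01 (SD of the medians of the 2 pools), and over all genes with signal it was -0.01. No member passed limma (2 pool ratios against 0, Benjamini-Hochberg over 41037 probes), where the smallest adjusted p of a member was 0.374 for Pcyt2. Over all probes limma, with 1 residual degree of freedom, also called 0 (0.0%). At an unadjusted p under 0.05, limma gave 2 members higher and 7 lower (25.7% of 35, against 20.1% of all genes with signal, 8.66% higher and 11.4% lower).

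A smaller set of members kept 1 direction throughout. Cers6, Sphk1, Ptdss2 and Cers4 were above the control on all 4 arrays by a mean log2 ratio of 0.30 or more, and Mboat1 and Etnk1 were below it by as much. These 4 higher and 2 lower members are 17.1% of 35. Of all genes with signal, 4.36% were higher and 4.44% lower in the same way (8.79% together). With no size asked, 4 members were higher and 6 lower on all 4 arrays (28.6%), beside 27.2% of all genes, 12.7% higher and 14.6% lower. The exchange of dyes moved a member's ratio by a median of 0.19 on the log2 scale and the change of pool moved it by a median of 0.08, against 0.20 and 0.10 over all genes. The dye gap is between single arrays and the pool gap between means of 2 arrays, so they are not on equal terms. The software gave each single log2 ratio of a member an error between 0.20 and 0.36.

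**Figure D1:**
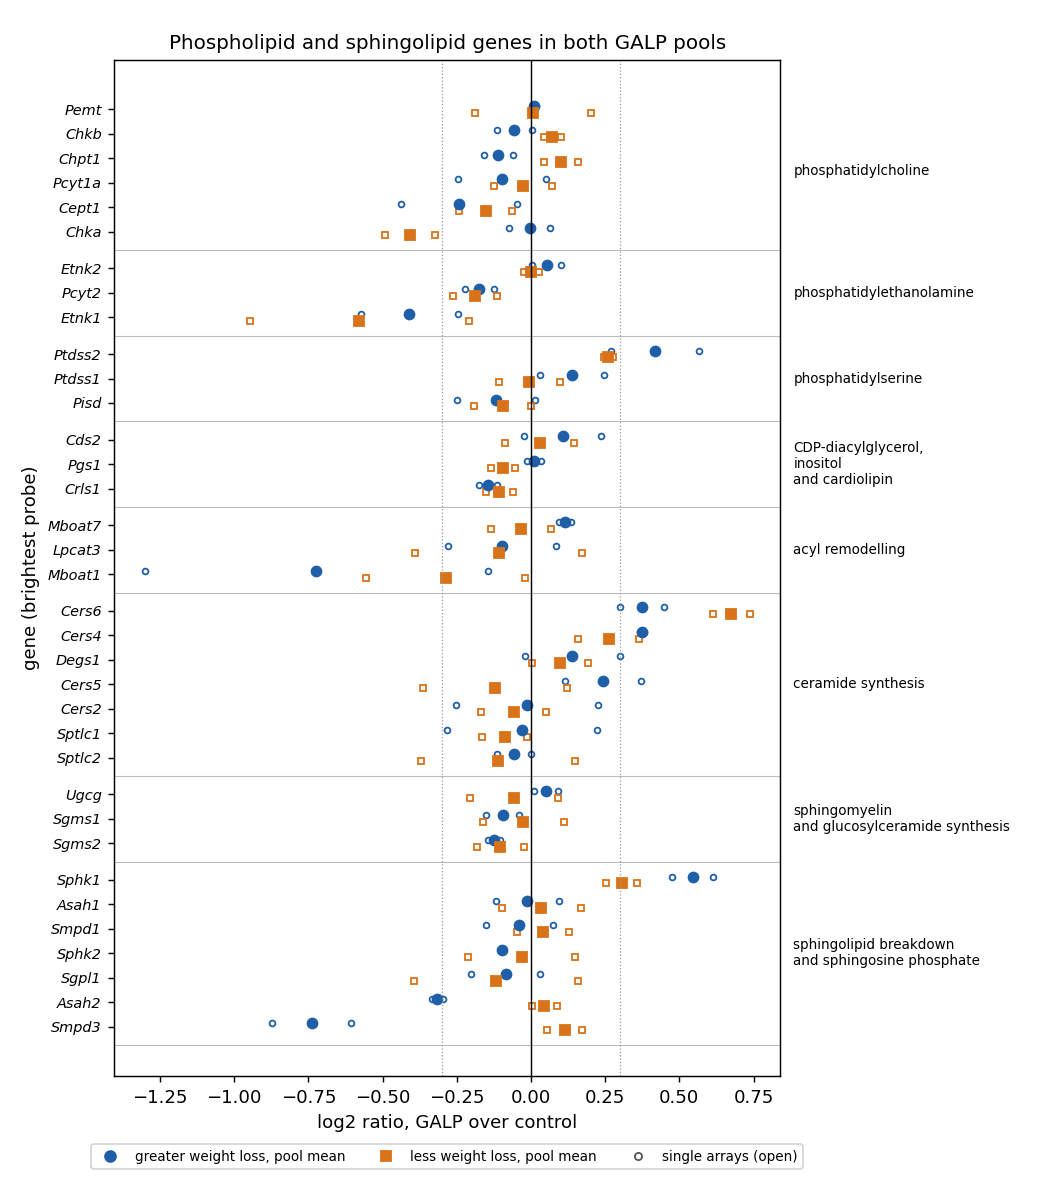
Log2 ratio of GALP over control for the 35 members with signal on every array, 1 row per gene and grouped by branch. Filled circles and squares are the means of the greater and the less weight loss pool, open symbols are single arrays, and dotted lines mark 0.30 above and below the control. Cers6 and Sphk1 lie highest, Mboat1 and Etnk1 lowest, and Smpd3 has its pools on opposite sides of 0.

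Promoters are shown for the 3 sphingolipid genes among the higher members and for Etnk1, the lower member with a second probe below the control, to set their upstream letters side by side. The 250 bases before the annotated start are given, from RefSeq on GRCm38.p6, plus strand, with matches to the searched motifs in capitals. Cers6 lies at chr2:68861191-68861440, Cers4 at chr8:4493155-4493404, Sphk1 (the first of its 5 listed starts) at chr11:116530850-116531099 and Etnk1 at chr6:143166980-143167229.
Cers6: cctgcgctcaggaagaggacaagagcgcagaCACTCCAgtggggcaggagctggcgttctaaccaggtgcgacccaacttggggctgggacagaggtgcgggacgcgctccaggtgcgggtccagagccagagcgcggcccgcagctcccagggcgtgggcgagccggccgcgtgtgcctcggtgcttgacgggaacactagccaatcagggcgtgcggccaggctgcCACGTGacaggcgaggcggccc
Cers4: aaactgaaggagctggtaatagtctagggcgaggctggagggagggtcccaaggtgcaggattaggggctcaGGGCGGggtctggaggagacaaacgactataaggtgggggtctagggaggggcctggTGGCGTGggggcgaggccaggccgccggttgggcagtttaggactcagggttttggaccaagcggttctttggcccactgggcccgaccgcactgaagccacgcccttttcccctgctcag
Sphk1: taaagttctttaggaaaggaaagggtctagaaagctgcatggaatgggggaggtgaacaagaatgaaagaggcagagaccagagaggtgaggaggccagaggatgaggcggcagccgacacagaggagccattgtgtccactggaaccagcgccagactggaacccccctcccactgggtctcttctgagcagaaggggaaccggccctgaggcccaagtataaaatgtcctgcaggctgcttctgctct
Etnk1: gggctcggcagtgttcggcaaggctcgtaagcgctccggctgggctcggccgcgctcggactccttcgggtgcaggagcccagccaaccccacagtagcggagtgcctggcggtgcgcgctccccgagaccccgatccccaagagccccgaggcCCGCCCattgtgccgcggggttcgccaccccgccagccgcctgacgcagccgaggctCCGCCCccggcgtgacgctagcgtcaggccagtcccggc

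The motifs searched on both strands were the E-box CACGTG, the GC box GGGCGG, the core of the sterol response element CACNCCA and AGGTCA. The last is only a part of a PPAR site. No matches overlapped in these windows. Cers6 held 1 E-box and 1 sterol response element core, Cers4 held 1 GC box and 1 sterol response element core, Etnk1 held 2 GC boxes, and the Sphk1 window held none of them. Among the first promoters of all 27025 genes of the table, the E-box was in 6.05% and the GC box in 32.9%. The sterol response element core was in 15.4% of them and AGGTCA in 13.8%. Of the 36 members with a promoter in the table, the first promoter held a GC box in 27 (75.0%) and a sterol response element core in 8 (22.2%). It held an E-box in 4 (11.1%) and AGGTCA in 3 (8.33%). Some of the 36 lacked a probe or signal. The shares beside them are over all genes of the table, not over the genes with signal here. A match is a run of letters and no binding was measured here.

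Ceramide synthesis held the highest ratio of the set. Cers6, the ceramide synthase that prefers C16 acyl chains, had log2 ratios of 0.30 and 0.45 in the greater weight loss pool (GALP in Cy5 and in Cy3) and 0.61 and 0.74 in the less weight loss pool. Its processed signal was 1845 to 2128 in the 4 control channels and 2516 to 3248 in the 4 GALP channels, so the channels did not overlap. Among the 35 members only Cers6 and Sphk1 had no overlap (5.71%), both with GALP higher, beside 5.2% of all genes with signal (2.8% higher and 2.4% lower). The mean was 0.52 ± 0.21 (SD, n = 2 pools), a 1.44-fold higher level, and limma's adjusted p was 0.51. Its probe lies at chr2:68952168-68952227 on mm9, plus strand. The p-value of the software was under 0.01 on 2 arrays, both of the less weight loss pool. In that pool Cers6 alone among the 35 members (2.86%) passed the rule of the methods. Of all 41037 probes, 0.234% did so as higher ones in that pool. Only 15713 of those probes had signal on every array, and the share over genes with signal was not counted.

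Cers4, a ceramide synthase of longer acyl chains, had log2 ratios of 0.37 and 0.38 in the greater and 0.16 and 0.36 in the less weight loss pool. Its mean was 0.32 ± 0.08 (SD, n = 2 pools) with a limma adjusted p of 0.422, and 0 arrays had a p-value of the software under 0.01. All 4 arrays were above the control, although its control signals (78.3 to 112) and GALP signals (102 to 128) overlapped between arrays. A second Cers4 probe with signal had pool values of 0.48 and -0.12. The probe used lies at chr8:4523988-4524047 on mm9, plus strand.

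The rest of the ceramide branch stayed near the control. Sptlc1 and Sptlc2, the subunits of serine palmitoyltransferase that catalyse the first step, had means of -0.06 ± 0.04 and -0.08 ± 0.04. Cers2, the synthase of very long acyl chains and the main one of the liver, had -0.04 ± 0.03, and Cers5 had 0.06 ± 0.26 with its pools at 0.24 and -0.12. Degs1, the desaturase that turns dihydroceramide into ceramide, had 0.12 ± 0.03. Degs2 was well above background in 1 of 4 channels on each side. In the greater weight loss pool its GALP side was not well above background. The same held for its control side in the less weight loss pool. Its log2 ratios were -0.34 and -0.64 in the greater and 1.31 and -0.03 in the less weight loss pool. No fold is given for it, since few channels cleared the background. The median of the 7 ceramide synthesis genes with signal was 0.06, with 0.14 in the greater and -0.06 in the less weight loss pool.

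In the breakdown of sphingolipids, Sphk1 had the highest ratio. Sphk1, a sphingosine kinase that makes sphingosine 1-phosphate, had log2 ratios of 0.48 and 0.61 in the greater and 0.36 and 0.25 in the less weight loss pool. The control channels read 134 to 175 and the GALP channels 205 to 234, with no overlap. The mean was 0.43 ± 0.17 (SD, n = 2 pools), 1.34-fold, with a limma adjusted p of 0.506, and 1 array had a p-value of the software under 0.01. The probe lies at chr11:116397908-116397967 on mm9, plus strand, and the other Sphk1 probe had no signal on every array. Sphk2, the other sphingosine kinase, had a mean of -0.06 ± 0.05. Sgpl1, the lyase that ends the pathway, had -0.10 ± 0.02 in the pools, with arrays from -0.39 to 0.16. Smpd1 and Asah1, the acid sphingomyelinase and the acid ceramidase of lysosomes, had 0.00 ± 0.06 and 0.01 ± 0.03.

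Some markers of Kupffer cells, the macrophages of the liver, were also above the control in both GALP pools. Of 5 such markers, all 5 were above background in every channel, and Marco had a mean log2 ratio of 0.87 ± 0.25 and Adgre1 of 0.43 ± 0.01, whereas Clec4f (-0.00 ± 0.16), Vsig4 (-0.07 ± 0.26) and Cd5l (0.14 ± 0.02) lay nearer to the control. The summed signal of the list ran from 22840 to 27890 in the GALP channels and from 20200 to 22650 in the control channels. Among 5 markers of the sinusoidal endothelium, all above background in every channel, Lyve1 had 0.74 ± 0.05, Stab1 0.22 ± 0.00, Oit3 0.19 ± 0.05, Stab2 0.13 ± 0.08 and Clec4g -0.12 ± 0.02, with summed signals of 21070 to 26800 in the GALP and 21420 to 30260 in the control channels. The part of these cells in the ratios of Cers6 and Sphk1 was not tested. In bulk RNA, a change in the number of cells of a type and a change in RNA per cell cannot be told apart. The hepatocyte markers (4 of 4 above background in every channel) had a median log2 ratio of 0.03, with Tat lowest at -0.38 ± 0.26.

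**Figure D2:**
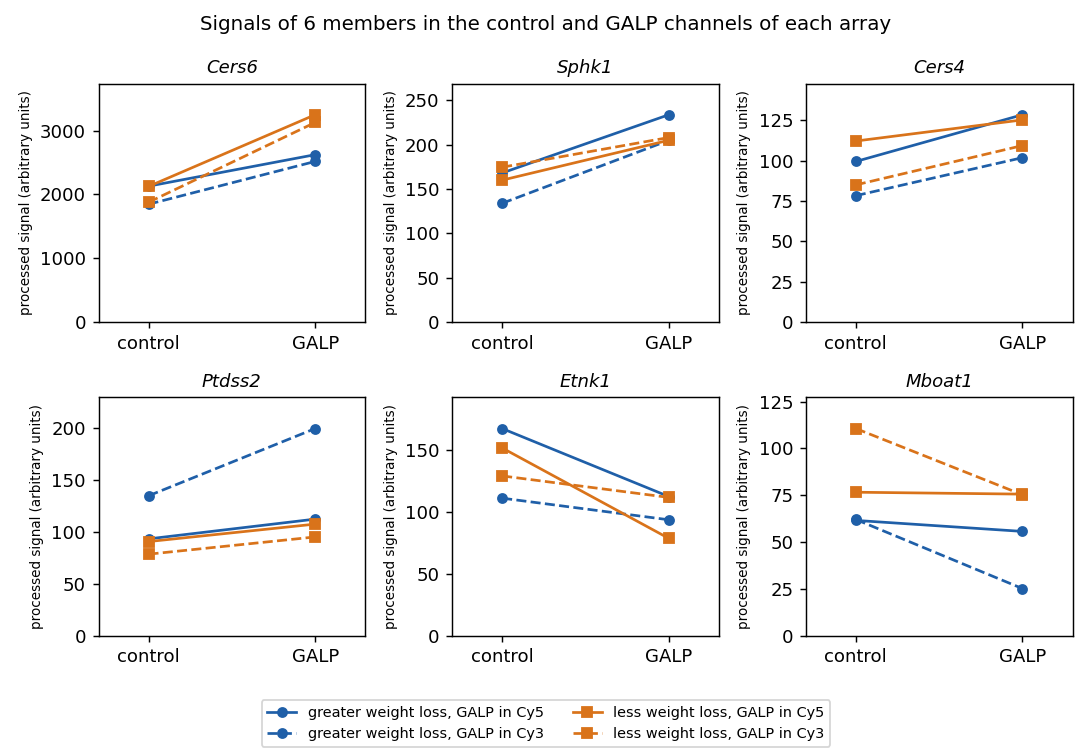
Processed signal (arbitrary units, linear scale from 0) of 6 members in the control and the GALP channel of each array. Lines join the channels of 1 array, colours mark the pools, and dashed lines mark arrays with GALP in Cy3. Cers6 and Sphk1 have no overlap between their control and GALP channels (5.2% of all genes with signal have none), and the other genes shown do.

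The genes that turn ceramide into sphingomyelin and glucosylceramide differed little from the control. Sgms2, a sphingomyelin synthase, was the furthest, with log2 ratios of -0.14 and -0.10 in the greater and -0.02 and -0.18 in the less weight loss pool. All 4 arrays were below the control and the mean was -0.11 ± 0.01 (limma adjusted p = 0.386). Sgms1, the other sphingomyelin synthase, had -0.06 ± 0.05, and Ugcg, the glucosylceramide synthase, -0.00 ± 0.08.

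Among the ethanolamine genes, Etnk1 was below the control in both pools. Etnk1, a kinase of the first step of the CDP-ethanolamine route, had log2 ratios of -0.57 and -0.25 in the greater and -0.95 and -0.21 in the less weight loss pool. The GALP channels read 78.8 to 113 and the control channels 111 to 168. The mean was -0.49 ± 0.12 (SD, n = 2 pools), 1.41-fold lower, with a limma adjusted p of 0.419, and 1 array had a p-value of the software under 0.01. In both pools the array with GALP in Cy5 gave the lower ratio. A second Etnk1 probe was also below the control on all 4 arrays, with -0.54 and -0.42 in the pools. The probe used lies at chr6:143154833-143154892 on mm9, plus strand.

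Pcyt2, whose product makes CDP-ethanolamine, was below the control by less but with close pools, at -0.17 and -0.19 (mean -0.18 ± 0.01). A second Pcyt2 probe gave 0.05 and -0.14. Etnk2, the other ethanolamine kinase, had 0.03 ± 0.04, while its dimmer probe, with signal on every array, gave -0.43 and -0.19. The median of the 3 ethanolamine genes was -0.18, the lowest of the branches. It is the value of the brighter Pcyt2 probe, and the second Pcyt2 probe had a mean of -0.05.

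By their brightest probes, the phosphatidylcholine genes held no member past 0.30. Chka, the choline kinase alpha, was the furthest by its mean (-0.21 ± 0.28), with log2 ratios of -0.07 and 0.06 in the greater and -0.49 and -0.32 in the less weight loss pool. The less weight loss pool thus lay below the control on both arrays, and the greater one did not differ from it beyond the dye gap of 0.14. A second Chka probe gave 0.14 and -0.36 and another gave -0.11 and -0.38. Cept1, which makes both phosphatidylcholine and phosphatidylethanolamine, was below the control on all 4 arrays, with pool values of -0.24 and -0.15 (mean -0.20 ± 0.06). Pcyt1a, the rate-limiting enzyme of the CDP-choline route, had -0.06 ± 0.05. Its dimmer probe, with signal on every array, gave -0.25 and -0.40, with arrays from -1.07 to 0.26. Chkb, the choline kinase beta, had 0.01 ± 0.09. Pemt, the methyltransferase that supplies phosphatidylcholine in the liver, had 0.01 ± 0.00 in the pools, with arrays from -0.19 to 0.20.

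Of the serine genes, Ptdss2, a phosphatidylserine synthase that uses phosphatidylethanolamine, had log2 ratios of 0.27 and 0.57 in the greater and 0.25 and 0.28 in the less weight loss pool. Its mean was 0.34 ± 0.11 (SD, n = 2 pools) with a limma adjusted p of 0.463, and 0 arrays had a p-value of the software under 0.01. The GALP signals (95.0 to 199) and the control signals (78.4 to 135) overlapped between arrays, and the second Ptdss2 probe gave -0.01 and -0.19. The brighter probe lies at chr7:148340473-148340532 on mm9, plus strand. Ptdss1, which uses phosphatidylcholine, had 0.07 ± 0.10, and Pisd, the mitochondrial decarboxylase that turns phosphatidylserine into phosphatidylethanolamine, had -0.11 ± 0.02.

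On the way to cardiolipin, Crls1, the cardiolipin synthase, had log2 ratios of -0.12 and -0.17 in the greater and -0.06 and -0.15 in the less weight loss pool. It was below the control on all 4 arrays by a mean of -0.13 ± 0.03 (limma adjusted p = 0.419). Pgs1, which makes the phosphatidylglycerol precursor, had -0.04 ± 0.07. Cds2, which makes CDP-diacylglycerol, had 0.07 ± 0.06, and the other enzyme of that step, Cds1, was not well above background in any channel, so no fold is given for it.

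Among the acyltransferases, Mboat1, which prefers lysophosphatidylserine and lysophosphatidylethanolamine, had log2 ratios of -0.14 and -1.30 in the greater and -0.02 and -0.56 in the less weight loss pool. The GALP channels read 25.2 to 75.6 and the control channels 61.6 to 111, and 1 GALP channel was not well above background. The mean was -0.51 ± 0.31 (SD, n = 2 pools), with a limma adjusted p of 0.612, and most of it came from the arrays with GALP in Cy3. The mean was -0.93 from those arrays and -0.08 from the arrays with GALP in Cy5. The probe lies at chr13:30338253-30338312 on mm9, plus strand. Lpcat3, the main lysophosphatidylcholine acyltransferase of the liver, had -0.10 ± 0.01 in the pools, with arrays from -0.39 to 0.17. Mboat7, which acts on lysophosphatidylinositol, had 0.04 ± 0.11. Lpcat1 cleared the background on the GALP side of 3 arrays and on the control side of 1, and Mboat2 on 1 array for each side, so no fold is given for either.

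The ratios of 5 of these members were smaller in another processing, which took the mean signals and changed the background correction (normexp) and the normalization (loess) together. There Cers6 had a mean log2 ratio of 0.51. Sphk1 had 0.15, Ptdss2 0.08, Cers4 0.04, Mboat1 -0.09 and Etnk1 -0.11. The processed signals of these 5 were at most 234, and that correction adds an offset of 50 to both channels. Which of the changes moved the ratios was not tested.

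**Figure D3:**
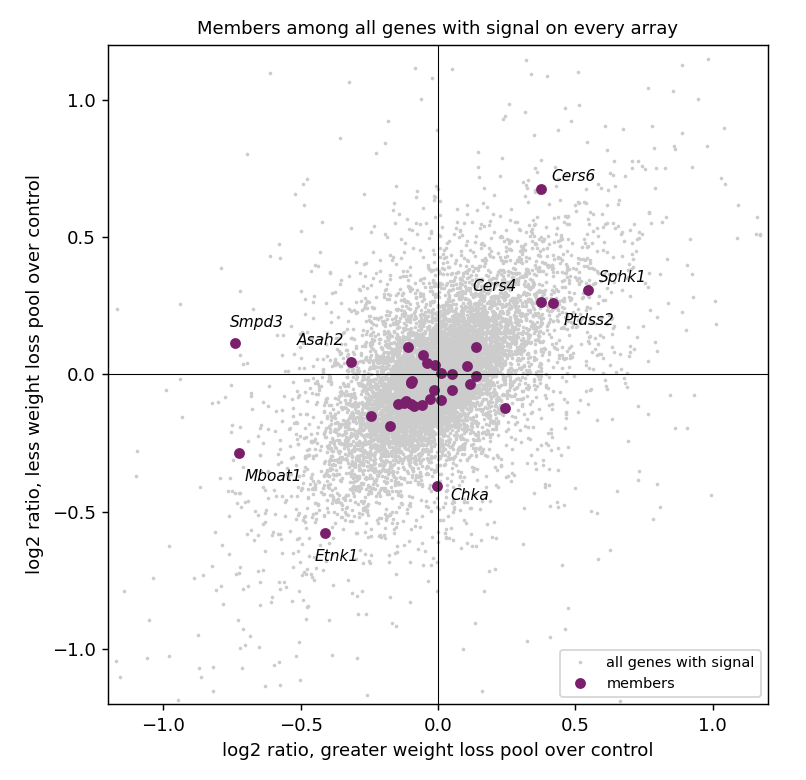
Log2 ratio over control in the greater (x axis) and the less weight loss pool (y axis), for the 35 members (large points) among the 11318 genes with signal on every array (small grey points; those past 1.2 in size are outside the axes). Both axes share the control pool. Cers6 and Sphk1 lie high in both pools, Etnk1 and Mboat1 low in both, Smpd3 and Asah2 low in the greater weight loss pool alone and Chka low in the less weight loss pool alone.

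The comparison of the weight loss groups rests on 1 pool each and has no test. In 3 genes, Smpd3, Asah2 and Chpt1, the greater weight loss pool lay below the control on both arrays and the less weight loss pool above it on both. They are 8.57% of the 35 members, and 6.12% of all genes with signal had their pools on opposite sides in this way (3.03% with the greater pool below). Smpd3, a neutral sphingomyelinase, had log2 ratios of -0.61 and -0.87 in the greater and 0.17 and 0.05 in the less weight loss pool. The GALP channels of the greater weight loss pool read 446 and 376 against 678 and 688 in the control channels beside them. In that pool alone Smpd3 passed the rule of the methods, with pool values of -0.74 and 0.11. Of all probes, with or without signal, 0.395% did so as lower ones, and the share over genes with signal was not counted. A second Smpd3 probe gave -0.38 and 0.07, and another, which was below the control on all 4 arrays, gave -0.56 and -0.22. The probe used lies at chr8:108778800-108778859 on mm9, minus strand.

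Asah2, the neutral ceramidase, had log2 ratios of -0.30 and -0.33 in the greater and 0.09 and 0.00 in the less weight loss pool, and its 3 other probes had no signal on every array. Chpt1, the cholinephosphotransferase that completes the CDP-choline route, had -0.16 and -0.06 in the greater and 0.04 and 0.16 in the less weight loss pool. Its 2 other probes with signal gave -0.25 and -0.18, and -0.09 and -0.02, so they did not lie on opposite sides. The difference between pools was larger than the dye gap of either pool in 8 members (22.9%), among them Cers6 (higher in the less weight loss pool by 0.30) and Sphk1 (higher in the greater by 0.24), and in 17.3% of all genes.

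Pancreas transcripts and the stomach transcript Tff2 lay on the same sides of the control as these members. The pancreas enzymes Cpa1, Cela1 and Pnlip had log2 ratios of -3.36, -3.72 and -3.89 in the greater and 0.73, 0.84 and 0.84 in the less weight loss pool. All 3 were above background in every channel, and their summed signal ran from 3238 to 65880 in the GALP channels and from 36110 to 52100 in the control channels. Of the 4 stomach markers, Tff2 had -3.79 and 0.68 and Tff1 -3.63 and -3.64, Gkn2 was above background in no GALP channel and Gkn1 in no channel of either side. The summed stomach signal ran from 146 to 3730 in the GALP channels and from 2471 to 2916 in the control channels. The part of these transcripts in the values of Smpd3, Asah2 and Chpt1 was not tested.

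**Figure D4:**
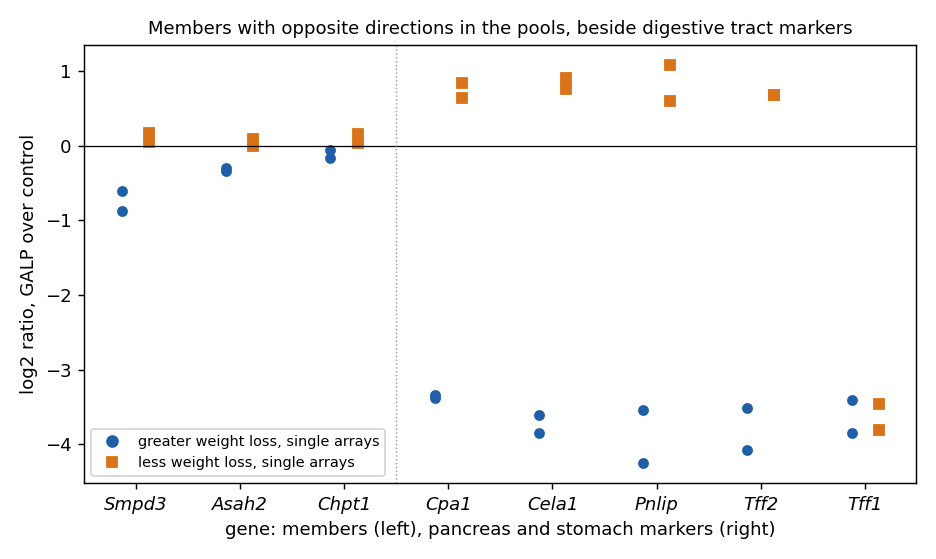
Log2 ratio of GALP over control on single arrays for the 3 members whose pools lay on opposite sides of the control (left of the dotted line) and for pancreas and stomach markers (right). Circles are the greater and squares the less weight loss pool. Smpd3 lies at -0.61 and -0.87 in the greater weight loss pool, and Cpa1, Cela1, Pnlip and Tff2 lie beyond -3 there and above 0 in the other.

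Other genes of the pathways, from a list of 84 of which 69 had signal, were read in the same way. The rule of the methods called 0 of them, their median log2 ratio was 0.01, and 6 were higher and 1 lower by 0.30 or more on all 4 arrays, where 4.36% of all genes with signal were higher and 4.44% lower (8.79% together, and 0.512% called by the rule). St3gal5, which makes the ganglioside GM3 from lactosylceramide, had 0.56 ± 0.08, with a p-value of the software under 0.01 on 3 arrays. Gdpd1, a glycerophosphodiester phosphodiesterase, had 0.62 ± 0.00, with arrays from 0.37 to 0.86, and its control side cleared the background on 3 arrays. Pla2g12a, a secreted phospholipase, had 0.33 ± 0.06. In methyl supply, Ahcy, which hydrolyses S-adenosylhomocysteine, had 0.42 ± 0.00, with arrays from 0.20 to 0.64. Nnmt, which uses methyl groups on nicotinamide, had 0.42 ± 0.07. Pnpla7, a lysophospholipase, was the lower gene at -0.44 ± 0.20. By branch of this list, the higher genes were 2 of 10 in choline and methyl supply, 2 of 14 among phospholipases and 2 of 21 among sphingolipid enzymes, against 4.36% of all genes, and 0 of the genes of phosphatidate and cardiolipin, ether lipids and lipoprotein transport.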

How the data were processed

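Arrays were scanned and processed by the authors with Agilent Feature Extraction (12.0.3.1 per the file headers, 11.0.1.1 per the submitters' processing notes), including background subtraction and LOWESS dye normalization. The deposited processed signal of a channel is an intensity. The deposited log10 ratio is that of Cy5 over Cy3, and the deposited p-value comes from the error model of the software and compares the extracts of 1 array. The deposited series table holds log10 ratios that matched GALP over control on all 4 arrays where the ratio was not 0 (r = 1), and it served as an alternative.

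The log10 ratios became log2 ratios of GALP over control. Outlier spots (232 to 319 of 43379 per array) were left out, and means were taken over the spots of a probe and then over both arrays of a pool (n = 2 pools). On every array 0 spots were saturated, and 40.5% to 46.7% were above background in a channel. Precision is limited by the number of arrays, and the SD of the 2 pools leaves out the gap between the arrays of a pool. The labels give the weight loss group to the control channel too, whereas the methods describe 1 control pool, which was assumed. The labels give 2 weeks of acclimatization and the methods 1.

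limma 3.58.1 in R 4.3.3 tested the 2 pool ratios against 0, with Benjamini-Hochberg adjustment over 41037 probes. Both the test and the rule of the methods were also run on simulated data. For the test, the 2 simulated pools were drawn independently, whereas the real pools share 1 control pool. Those runs therefore do not show how the test behaves on these data. Values are given per array for members past 0.30 on all 4 arrays, for the furthest member of each branch and for members whose pools lay on opposite sides. The members, lists and tests were chosen with earlier results of these data known. Positions are on mm9 per the file headers, and Python 3.11.15 was used. The values of 1 other pathway gene are not reported here.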

Additional observations from a re-analysis of the deposited data

Results flagged for a closer look

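For 3 members, every array of the greater weight loss pool lay on one side of the control and every array of the less weight loss pool on the other. The log2 ratio of the greater minus that of the less weight loss pool was -0.85 for Smpd3, -0.36 for Asah2 and -0.21 for Chpt1. The difference was not tested, since each weight loss group is 1 pool. For Asah2, the less weight loss array with GALP in Cy3 was at 0.00. Another Smpd3 probe was below the control on all 4 arrays, and the other Chpt1 probes with signal were below it in both pools.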

How the results depend on the processing

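The rule of the methods gave 0 members in both pools under every alternative tried, including those without a p-value and with a p-value on 1 array of each pool, and in single pools it gave 1 higher (Cers6, less weight loss pool alone) and 1 lower (Smpd3, greater weight loss pool alone). The members higher by 0.30 on all arrays were 4, but 1 (Cers6) with normexp and loess, 2 (Cers6 and Sphk1) with the mean over all probes of a gene, and 2 to 4 when an array, a dye orientation or a pool was left out. It was 2 (Cers6 and Sphk1) without the arrays with GALP in Cy3 and without the greater weight loss pool. The members lower by as much were 2, but 0 with normexp and loess and 1 to 4 in the same leave-outs. It was 1 without the arrays with GALP in Cy5 (Mboat1) or without the greater weight loss array with GALP in Cy3 (Etnk1), and 4 without the less weight loss pool (Asah2, Etnk1, Mboat1 and Smpd3). The median of all members was -0.0226 with normexp and loess, -0.0213 after centring, -0.0354 with no filter on dim probes, and between -0.0585 and -0.0102 in the leave-outs. limma called 0 members under each of its alternatives, with 2 to 9 at an unadjusted p under 0.05 and a smallest adjusted p of 0.0627 (Pcyt2, normexp). Over all probes limma called 0, against 42 higher and 53 lower with normexp, 39 and 67 with arrays and the pool as a random block, and 0 and 1 after a filter on dim probes. The random block fit took the 4 arrays as observations, although the arrays of a pool hold the same extracts. Its correlation within a pool was -0.39. No paired analysis was possible because the labels number no replicates, the arrays of a pool differ only in dye orientation, and each ratio already pairs GALP with control on 1 array.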
